A study of Rattus norvegicus with 16 samples.

Results

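Peptide hormones of the gut other than ghrelin were followed in the stomach and the middle part of the intestine of suckling Wistar rats (Wistar Han in the study's methods): gastrin (Gast), somatostatin (Sst), cholecystokinin (Cck), glucose-dependent insulinotropic polypeptide (Gip), secretin (Sct), neurotensin (Nts), proglucagon (Gcg) and peptide YY (Pyy), together with chromogranin A (Chga), the granule protein that most hormone cells share. The genes were chosen by name, and every probe carrying one of the 9 names was taken. This gave 10 of the 30367 probes of the array, 1 for each gene and 2 for Pyy, and all 10 were among the 21174 probes bright enough to be tested. Saline solution was given to the C group. The OH group was given obestatin, a peptide from the ghrelin precursor, into the stomach at 250 nmol/kg BW, 2 times a day for 7 days from day 14 of life, and organs were collected on day 21. Both groups were of the same strain and age. Stomach and middle intestine of each treatment make up 4 groups, with 4 arrays per group. Each two-colour array compared tissue RNA in Cy5 with a common reference in Cy3, a pool of RNA from all animals of the study, and the dyes were not swapped. Which region of the stomach, and which length of the middle intestine, entered an extract is not given in the sources used here.

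Gut hormones are made by enteroendocrine cells, single cells scattered through the epithelium. Each type of cell is known for a place along the tract. Gastrin is made by the G cells of the gastric antrum, somatostatin by D cells of stomach, intestine and pancreas, cholecystokinin, secretin and the insulinotropic polypeptide mainly in the upper small intestine, neurotensin in the ileum, and proglucagon and peptide YY together in L cells, which become more frequent towards the distal bowel. All are translated as long precursors, cut at pairs of basic amino acids by prohormone convertases and often amidated at the end before storage in granules.

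The probes are 60 bases long, and their positions are those of the array design in the rn4 build. They lie on chromosome 10 for Gast (chr10:89276133-89276192), Gip (chr10:84736586-84738645) and both Pyy probes (chr10:91174366-91174425 and chr10:91174648-91174707), on chromosome 11 for Sst (chr11:79126157-79126216), 8 for Cck (chr8:126492642-126492700), 1 for Sct (chr1:201472177-201472236), 7 for Nts (chr7:40474898-40474957), 3 for Gcg (chr3:44436079-44436138) and 6 for Chga (chr6:126832496-126832555). The listed positions of the Gip probe span 2060 bases, more than its 60, so its sequence is split over exons. Cck, Sct, Nts, Gcg and Pyy are on the minus strand. Below are probes picked as reading the coding part of a precursor. They show which stretch of the precursor was measured, which need not be the hormone itself. Gast, Cck, Sct, Chga and Pyy probe 1 also had a frame without a stop and are not shown. Capitals mark codon pairs, in the single reading frame without a stop, that encode lysine or arginine followed by arginine. No pair was searched in Gip and Pyy, where more than 1 frame was free of stops.
Nts: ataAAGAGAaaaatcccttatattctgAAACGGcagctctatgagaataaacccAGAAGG
Gcg: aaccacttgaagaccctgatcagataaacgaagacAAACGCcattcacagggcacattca
Gip: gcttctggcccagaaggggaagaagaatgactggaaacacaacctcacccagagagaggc
Pyy probe 2: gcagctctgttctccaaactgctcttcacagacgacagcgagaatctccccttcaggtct
The Nts probe held 3 such pairs. Between the first 2 pairs lies the stretch coding for neuromedin N, a second peptide of the same precursor. Neurotensin itself begins after the second pair and runs through the third. Pairs were marked by their codons alone, and a marked pair need not be a site of cutting. In the Gcg probe the 1 pair stands directly before the start of glucagon. A signal on these probes therefore counts the precursor mRNA and cannot tell which of its peptides was released.

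Each array carried 62976 spots, with 2 spots for each of the 10 probes. Median raw Cy5 signals of single arrays ranged from 162.6 to 327.8 scanner units. Those of the Cy3 reference ranged from 188.2 to 195.3 on the C arrays and from 340.8 to 399.2 on the OH arrays. Every group had its own slide, and the slides of OH and of C rats were read on different days. Treatment therefore cannot be told apart from slide or day of scanning, nor tissue from slide. Markers told stomach from intestine as labelled: all 10 genes listed for oxyntic and surface mucosa were higher in C stomach than in C middle intestine. Lower were 10 of 11 enterocyte genes and all 4 tested genes of the ileal enterocyte. Over all probes 22.7% were higher and 22.3% lower. These markers do not show which length of intestine was sampled. Of 9 tested exocrine pancreas genes 7 were higher in C stomach as well, and of 8 tested striated muscle genes 6. Values below are log2 ratios of Cy5 to Cy3 per array, in the order of the replicates, and differences between groups are tested in limma over all 21174 probes with Benjamini-Hochberg adjustment. Whether fewer hormone cells or less RNA per cell lies behind a lower ratio cannot be told apart in tissue RNA. The study's methods give 4 litters for each treatment, so litter went with treatment as well. Nothing says that the arrays of a group came from separate litters, so p-values measure the spread between these samples. Whether the same rats gave both tissues is not stated clearly.

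The first comparison asked where along the tract each hormone gene was expressed. In C rats all 10 probes differed between the tissues, 5 higher in stomach (Gast, Sst, both Pyy probes and Chga) and 5 lower (Cck, Gip, Sct, Nts and Gcg). Over all probes tested, 44.9% differed, 22.7% higher and 22.3% lower in stomach. The median size of the difference was 3.24 on the log2 scale for the 10 hormone probes and 0.44 for all probes. On 7 of the 10 probes the 4 stomach arrays did not overlap with the 4 intestinal ones, against 43.7% of all probes.

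**Figure D1:**
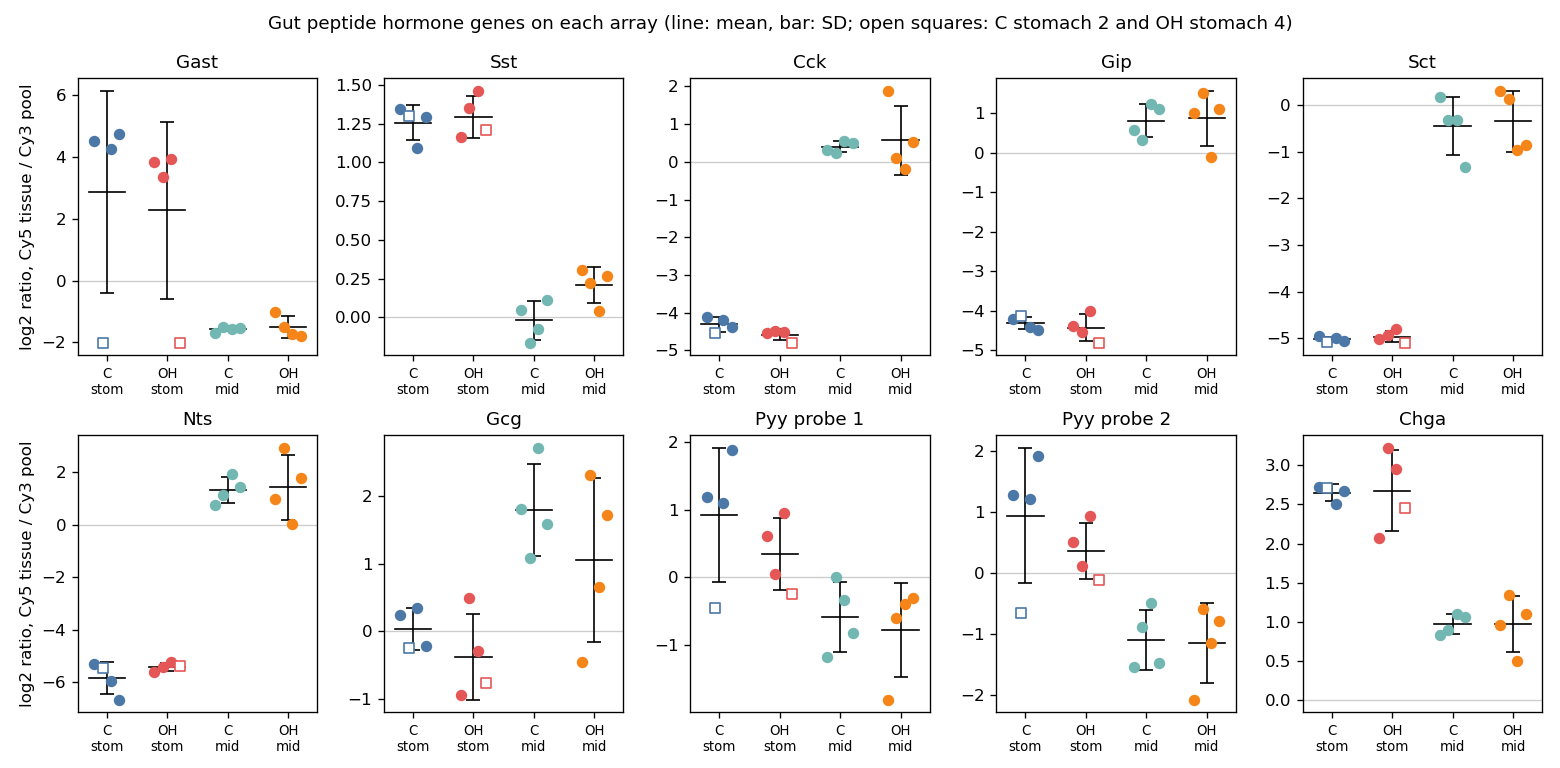
Each panel plots 1 probe: the log2 ratio of tissue (Cy5) to the reference pool (Cy3) on the vertical axis, 1 point per array, with the mean (line) and SD (bar) of the 4 arrays of each group. The scales differ between panels. Cck, Gip, Sct and Nts were far apart between the tissues in both treatments, and the open squares mark C stomach 2 and OH stomach 4, where Gast stood at -2.01 and -2.02.

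Nts was lower in stomach, though its gastric level was barely measured. Its ratios in C stomach were -5.31, -5.47, -5.95 and -6.67, and in C middle intestine 0.76, 1.15, 1.92 and 1.44. The intestinal arrays were all far above the gastric ones. The difference was -7.17 (SE 0.48, adjusted p = 2.58e-08, limma), but in stomach the probe was well above background in Cy5 on only 2 of 4 C arrays and 1 of 4 OH arrays, with signals of 5.0 to 15.1 scanner units. With another background correction and normalization (normexp and loess) the difference was -4.41, so its size depends on how the dim gastric signal was treated, and no rank among the genes was drawn from it.

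Gip, the incretin hormone of K cells, had ratios of -4.20, -4.14, -4.41 and -4.48 in C stomach and of 0.58, 0.33, 1.24 and 1.09 in C middle intestine. Here the gastric Cy5 signal, 65.0 to 68.0 units, was well above background on all 4 arrays. The difference was -5.12 (SE 0.30, adjusted p = 5.93e-09, limma). Cck, the hormone that empties the gallbladder and stimulates pancreatic enzyme secretion, stood at -4.11, -4.54, -4.20 and -4.40 in C stomach and at 0.33, 0.24, 0.56 and 0.49 in C middle intestine. Its arrays were tight within each tissue and wide apart between them, with a difference of -4.72 (SE 0.32, adjusted p = 2.77e-08, limma).

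Sct, which drives bicarbonate secretion by the pancreas, stood at -4.96, -5.08, -4.99 and -5.07 in C stomach and at 0.16, -0.31, -0.31 and -1.32 in C middle intestine. The stomach arrays lay within 0.12 of each other and the intestinal arrays spread over 1.49. The difference was -4.58 (SE 0.30, adjusted p = 2.38e-08, limma). Gcg, the precursor of glucagon and the glucagon-like peptides, differed least among these 5 genes. Its ratios were 0.24, -0.25, 0.35 and -0.22 in C stomach and 1.81, 1.09, 2.72 and 1.58 in C middle intestine, a difference of -1.77 (SE 0.51, adjusted p = 0.0113, limma). The groups did not overlap, yet the probe was dim, with gastric Cy5 signals of 39.7 to 71.3 units and intestinal ones of 127.3 to 479.8 units in C rats.

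Among the genes higher in stomach, Chga and Sst varied little between the C arrays. Chga had ratios of 2.72, 2.72, 2.50 and 2.67 in C stomach and of 0.83, 0.89, 1.10 and 1.06 in C middle intestine (difference 1.68, SE 0.22, adjusted p = 2.57e-05, limma). Sst, the peptide that restrains gastrin and acid secretion, had ratios of 1.35, 1.30, 1.09 and 1.30 in C stomach and of 0.05, -0.16, -0.07 and 0.11 in C middle intestine (difference 1.28, SE 0.10, adjusted p = 2.41e-07, limma). All 4 gastric arrays of both genes lay above all 4 intestinal arrays. The Cy3 reference of Sst was not level, however: its signal was 5271 to 9035 units on the stomach arrays and 2928 to 4073 on the intestinal arrays. In Cy5 alone, scaled to the 75th percentile of each array, the difference for Sst in C rats was 2.18, larger than by the ratio, and the part of the reference in this was not tested.

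Gast separated the stomach arrays from each other as well as from the intestine. In C stomach its ratios were 4.51, -2.01, 4.26 and 4.73, and in OH stomach 3.82, 3.34, 3.92 and -2.02. In middle intestine they were -1.68, -1.50, -1.56 and -1.53 in C rats and -1.02, -1.51, -1.73 and -1.79 in OH rats. Thus 6 stomach arrays were high, and C stomach 2 and OH stomach 4 were below every intestinal array. The Cy5 signal was 20837 to 104691 units on the 6 high arrays, 281.8 and 366.9 units on the 2 low ones and 371.6 to 593.4 units in the intestine. The probe was well above background on all 16 arrays. The mean difference between the tissues was 4.44 in C rats (SE 1.40, adjusted p = 0.0189, limma), but the adjusted p was 0.0544 to 0.0588 when C stomach array 1, 3 or 4 was left out, with 3.82 as the difference without array 4. Without C stomach 2 it was 6.07 (adjusted p = 0.000419). The Cy3 signal of Gast followed the Cy5 signal, with 2058 to 3945 units on the 6 high arrays and 1070 to 1483 units on the other 10, and its part in the result was not tested.

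Pyy was higher in the stomach, and both of its probes gave the same order of the C stomach arrays. Probe 1 stood at 1.18, -0.46, 1.10 and 1.88 in C stomach and at -1.18, 0.00, -0.34 and -0.83 in C middle intestine. Probe 2 stood at 1.27, -0.65, 1.22 and 1.93 in C stomach and at -1.55, -0.89, -0.49 and -1.47 in C middle intestine. On both probes the second C stomach array, the one without a high Gast ratio, fell among the intestinal values. The differences were 1.51 (SE 0.46, adjusted p = 0.0159, limma) and 2.04 (SE 0.48, adjusted p = 0.00307, limma). For probe 1 the adjusted p was 0.0562 without the fourth C stomach array and 0.0510 without the first C middle intestine array.

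In OH rats 9 of the 10 probes differed between the tissues, 4 higher and 5 lower in stomach, against 38.2% of all probes (19.2% higher and 19.1% lower), and on 8 probes the arrays did not overlap, against 35.2% of all probes. The differences were -5.30 for Gip, -5.16 for Cck, -4.61 for Sct, -1.44 for Gcg, 1.09 for Sst, 1.71 for Chga and 3.78 for Gast. For Nts, with 1 of 4 gastric arrays well above background, it was -6.83, and -4.79 with normexp and loess. Gcg passed with an adjusted p of 0.0373 and Gast with 0.0458 in limma. When any single array of these groups other than OH stomach 4 was left out Gast did not pass, with adjusted p values of 0.0666 to 0.114, and without OH stomach 4 the difference was 5.21 (adjusted p = 0.00411). Gcg did not pass without OH middle intestine array 2 or 4 or OH stomach array 1, 3 or 4, with 0.059 to 0.116. Pyy stood at 0.60, 0.05, 0.95 and -0.24 on probe 1 in OH stomach and at -1.81, -0.60, -0.39 and -0.31 in OH middle intestine. The difference was 1.12 on probe 1 (adjusted p = 0.0703, limma), which did not pass, and 1.51 on probe 2 (adjusted p = 0.0212, limma), which did. Probe 2 was not past the threshold without the third OH stomach array (adjusted p = 0.0598) or the first OH middle intestine array (adjusted p = 0.0702).

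**Figure D2:**
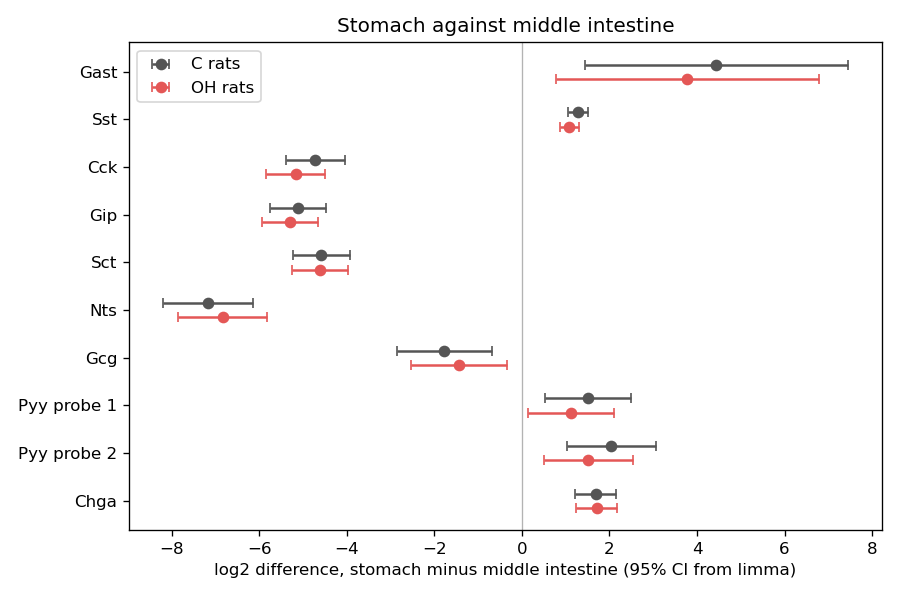
The log2 difference between stomach and middle intestine is plotted for the 10 probes in C rats (grey) and OH rats (red), with 95% confidence intervals from limma. Cck, Gip, Sct, Nts and Gcg lie below 0 and the other probes above it, the position of Nts rests on gastric signals that were mostly not well above background, and the intervals of C and OH rats overlap for all 10 probes.

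Obestatin was then compared with saline within each tissue. No hormone gene passed the test in stomach or in middle intestine. In stomach, 0 of 10 probes passed and 0% of all probes did. The limma fit gave 0 hormone probes at an unadjusted p under 0.05 as well, where 10.6% of all probes were, and the smallest adjusted p among the 10 was 0.685. On 4 probes the OH mean was above the C mean and on 6 below it, and by the ratio the arrays of OH and C separated for none, against 7.6% of all probes. In Cy5 alone, scaled to the 75th percentile of each array, Cck was lower on every OH than on every C stomach array, by -0.38 (adjusted p = 0.587, limma), the 1 probe of 10 to separate, against 11.9% of all probes. In middle intestine 0 of 10 probes passed, where 0.368% of all probes did, and 1 of 10 was at an unadjusted p under 0.05, where 10.5% of all probes were. There 7 means were above and 3 below those of C rats, and again no probe separated the groups by the ratio, against 5.86% of all probes.

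In stomach the OH arrays of Cck stood at -4.54, -4.48, -4.51 and -4.80, those of Gip at -4.38, -4.54, -4.00 and -4.81, and those of Sct at -5.02, -4.93, -4.81 and -5.10. These intestinal hormones thus stayed low on every gastric array of OH rats, with the C and OH ranges overlapping. Sst stood at 1.16, 1.35, 1.46 and 1.21 and Chga at 2.07, 3.22, 2.96 and 2.46 in OH stomach, and Pyy probe 2 at 0.50, 0.11, 0.94 and -0.12. The OH arrays of Chga lay on both sides of the C arrays, those of Sst reached above them and overlapped, and those of Pyy lay within their range.

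The 1 probe at an unadjusted p under 0.05 was Sst in middle intestine. Its OH arrays stood at 0.31, 0.22, 0.04 and 0.27, against the C arrays at 0.05, -0.16, -0.07 and 0.11. OH array 3 lay among the C arrays, and the other OH arrays lay above all of them. The difference was 0.23 (SE 0.10, adjusted p = 0.466, limma).

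How large a change could have been missed with 4 arrays per group differed greatly by gene. For Sst in stomach the 95% confidence interval of OH minus C ran from -0.19 to 0.26 on the log2 scale, and for Chga from -0.44 to 0.49. It ran from -0.95 to 0.40 for Cck, from -0.76 to 0.51 for Gip and from -0.59 to 0.71 for Sct. For Gast it ran from -3.61 to 2.40, so neither a large rise nor a large fall in gastrin mRNA is excluded by these arrays. In middle intestine the intervals were -0.50 to 0.85 for Cck, -0.57 to 0.69 for Gip, -0.55 to 0.74 for Sct, -0.91 to 1.13 for Nts and -1.83 to 0.35 for Gcg. The difference of OH against C between the tissues did not pass for any of the 10 probes (smallest adjusted p 0.894 in limma, 0 at an unadjusted p under 0.05), where 0% of all probes passed and 5.85% were at an unadjusted p under 0.05.

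**Figure D3:**
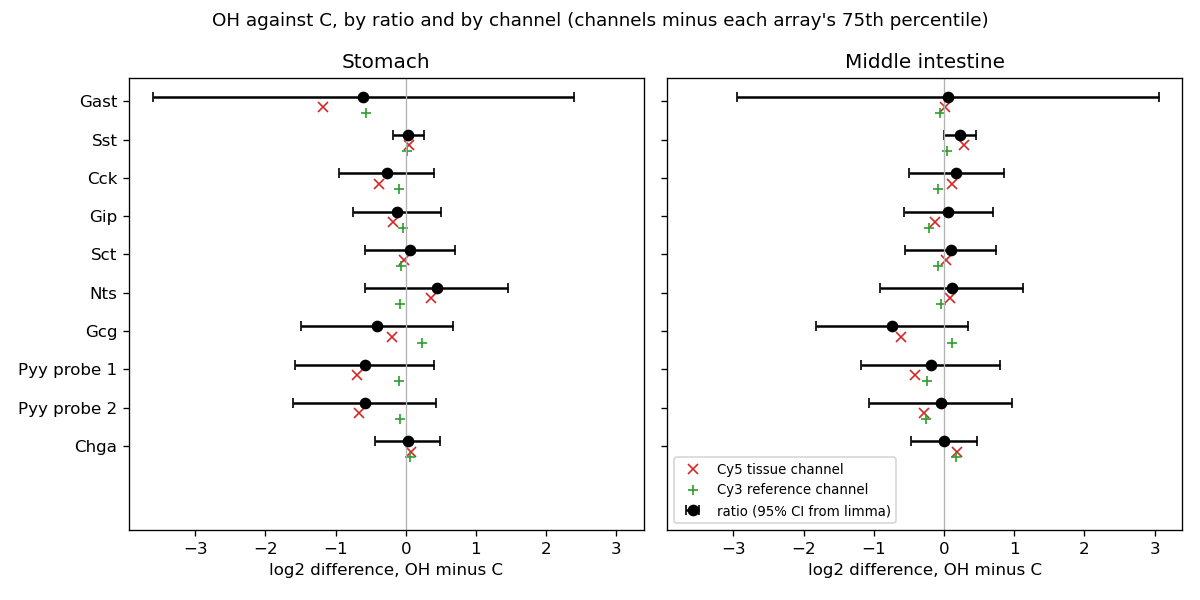
OH minus C on the log2 scale in stomach (left) and middle intestine (right), as the ratio with its 95% confidence interval from limma (black) and as the change of the Cy5 tissue channel (red crosses) and the Cy3 reference channel (green plus signs), each scaled to the 75th percentile of its array. The intervals of all probes include 0 apart from Sst in middle intestine, from 0.0047 to 0.45.

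The reference channel itself differed between OH and C slides for some hormones. The share of all probes that differed in Cy3 is not given here, so nothing particular to the hormone genes was read from these values. Scaled to the 75th percentile of each array, the Cy3 signal in middle intestine was lower on the OH arrays for Pyy, by -0.24 on probe 1 (adjusted p = 6.48e-05, limma) and by -0.25 on probe 2, and for Gip by -0.21 (adjusted p = 0.000452, limma). It was also lower for Sct by -0.09 (adjusted p = 0.0294) and for Cck by -0.08 (adjusted p = 0.0157), and higher for Chga by 0.17 (adjusted p = 0.017, limma). In stomach it was lower for Cck by -0.09 (adjusted p = 0.0116) and for Pyy probe 1 by -0.10 (adjusted p = 0.0466, limma). For Gip in middle intestine the ratio gave 0.06 and Cy5 alone -0.14, so the direction of this small difference turned with the reference. Neither value passed.

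Single middle intestine arrays lay further apart in OH than in C rats for Cck, Nts, Gcg, Gip, Gast, Chga and both Pyy probes. This difference in spread was not tested. Sct went the other way, with a range of 1.49 in C and 1.25 in OH rats, and Sst was nearly level at 0.28 and 0.26. Cck stood at 0.24 to 0.56 on the C arrays and at 1.88, 0.11, -0.19 and 0.52 on the OH arrays. Nts stood at 0.99, 2.92, 0.01 and 1.77 on the OH arrays, Gcg at -0.45, 2.31, 0.65 and 1.72, and Gip at 0.99, 1.50, -0.12 and 1.09. The first OH array had the highest Cck of all 16 arrays and the lowest Gcg and Pyy of the middle intestine, and its Pdx1 ratio was 1.67 against -2.99 to -1.91 on the other 7 intestinal arrays. Pdx1, a transcription factor of the duodenum, antrum and pancreas, was singled out after its values were seen. The second OH array was instead highest for Nts and Gip. The ileal enterocyte score, the mean log2 ratio of its 4 tested genes, was 2.67 and 3.58 on these arrays and ran from 1.55 to 3.75 over the 8 intestinal arrays. The enterocyte score, over 11 genes, spread more widely in OH rats, at 0.48, 1.32, -0.95 and -0.12, than in C rats, at -0.59, -0.26, 0.28 and -0.23. It was highest on OH array 2 and lowest on OH array 3, as were Nts and Gip, and its part in their values was not tested. Whether the stretch of intestine sampled plays a part in these values was not tested.

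The genes that follow gastrin on the same stomach arrays were examined next. Pdx1 stood at -0.47, -3.89, -0.94 and -0.11 in C stomach and at -1.10, -2.68, -0.62 and -3.50 in OH stomach. Cartpt, which encodes the CART peptide, stood at 3.35, -0.45, 2.53 and 3.84 and at 2.39, 1.16, 2.23 and 0.23. Both genes, like Pyy, were lowest in each group on the array where Gast was low. Ffar4, a receptor for long-chain fatty acids, stood at 0.94, -1.29, 0.62 and 1.77 in C stomach but at -0.54, -0.29, -0.61 and -0.60 in OH stomach, where the low Gast array did not stand apart. Sst and Chga did not follow Gast on these arrays, since the second C stomach array held 1.30 and 2.72 and the fourth OH stomach array 1.21 and 2.46. These genes were named after their values were seen.

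Other lists were read on the low Gast arrays. C stomach 2 and OH stomach 4 were each the lowest of their group for the mean log2 ratio of 4 lists. These were picked from all the lists scored after their values were seen. The means of 2 of them include Pdx1 or Ffar4, already named for their values on these arrays, and were not taken without that gene. For the 12 tested enteroendocrine transcription factors, Pdx1 among them, the means were 0.34 against 0.54 to 0.98 on the other C arrays and 0.07 against 0.39 to 1.05 on the other OH arrays. For the 5 nutrient sensors, with Ffar4, they were -0.68 against -0.36 to 0.07 and -0.71 against -0.53 to -0.31. The 5 amine genes (0.99 and 0.67) and 4 pancreatic islet genes (-0.26 and -0.52) were lowest there too, by small margins for the amine genes, whose next arrays stood at 1.00 and 0.75. In stomach the mean log2 ratio of the 8 tested striated muscle genes was -1.06 on the second C stomach array and 2.81 to 3.37 on the other C arrays, while in OH stomach it was 0.44 on the fourth array and -0.52 to 1.01 on the rest. The mean of the 10 oxyntic and surface mucosa genes was 3.32 on the second C stomach array and 2.81 to 3.25 on the others, and 2.59 on the fourth OH array with 2.25 to 3.16 on the others. Striated muscle thus stood apart on the C array only. The mucosal mean was the highest of its group on C stomach 2 and within the range of the others on OH stomach 4. This mean pools genes of unlike spread, with Tff2 running from 0.91 to 3.73 over the C stomach arrays. Whether each mucosal gene was kept where gastrin was low was not tested. The part of these lists in the Gast result was not tested. With C stomach 2 and OH stomach 4 left out, an alternative chosen after seeing the data, 10 probes passed between the tissues in C rats, 9 in OH rats and 0 for OH against C in stomach.

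**Figure D4:**
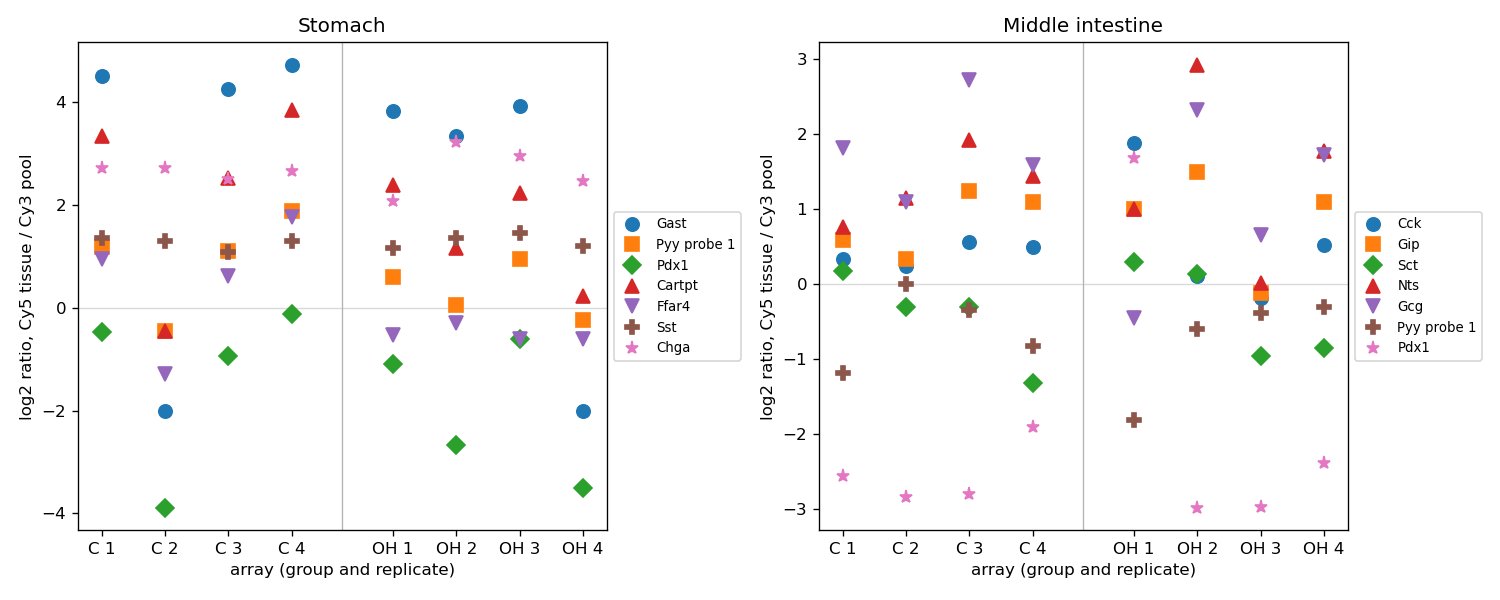
Log2 ratios by array for 7 genes in stomach (left) and 7 in middle intestine (right), with C arrays to the left of each vertical line and OH arrays to the right. On C 2 and OH 4 in stomach Gast, Pyy, Pdx1 and Cartpt lie at their lowest of each group while Sst and Chga do not, and on OH 1 in middle intestine Cck and Pdx1 are high where Gcg and Pyy are low.

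By a fixed rule, the 2 genes whose log2 ratios correlated best with each hormone over the 16 arrays were listed, as a description over points that share tissue and slide. Gast was followed by Hal, histidine ammonia-lyase (Pearson r = 0.976), and Il1rn, the interleukin-1 receptor antagonist (r = 0.939). Hal stood at 1.98, -3.08, 0.90 and 2.24 in C stomach and at 0.81, -0.39, 1.17 and -2.75 in OH stomach, low on the same arrays as Gast. Its Cy5 signal was not well above background on C stomach 2 (6.4 units) or on any intestinal array (6.8 to 15.5 units). On OH stomach 4 it was 13.6 units. The correlation of Hal with Gast thus rests in part on dim signals. Il1rn was also second for Pyy (r = 0.894), after Tfcp2l1 (r = 0.899). Gip was followed by Cps1 and Otc, both of the urea cycle (r = 0.996 each), Nts by Otc (r = 0.994) and Tubal3 (r = 0.992), Sct by Clrn3 (r = 0.997) and Muc3 (r = 0.996), and Cck by Nlrc4 (r = 0.993) and Tm4sf20 (r = 0.992). Correlations of this size are set largely by the distance between the tissues, since in C rats Cps1 was at -5.05 in stomach and 0.65 in middle intestine. Sst was followed by Ctdspl (r = 0.987) and Car5b (r = 0.986), Chga by Myrf (r = 0.979) and Tyro3 (r = 0.978), and Gcg by Treml1 (r = 0.923) and Smarcb1 (r = 0.891).

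The receptors of these hormones were then set beside them. Of 19 listed receptor genes 12 were bright enough to test, and in C rats 6 were higher in stomach, 4 lower and 2 did not pass, where 44.9% of all probes differed. Cckbr, the receptor through which gastrin acts on parietal and histamine cells, stood at 0.92, 2.53, 1.42 and 0.94 in C stomach and at -4.77, -2.75, -4.62 and -4.00 in C middle intestine. Its difference was 5.48 (SE 0.48, adjusted p = 4.5e-07, limma), against an intestinal level measured well above background on 1 of 4 C arrays. A second Cckbr probe gave only 2.03 (adjusted p = 0.00197, limma). That probe was well above background on 4 C stomach arrays and 0 C intestinal arrays, so the size of the difference is not settled. On the OH intestinal arrays the brighter probe was well above background on none. For this step alone, average intensities were first made alike between all arrays by quantile normalization, with the ratios kept. For each OH intestinal array the higher of its own Cy5 signal and its lowest Cy5 signal well above background was then taken. By this floor the Cy5 signal of the brighter probe was 67.8-fold higher in OH stomach. A probe not well above background can be brighter than that lowest signal, so the value is not a strict lower limit. Cckbr did not follow Gast, and its ratio was highest on the second C stomach array, where Gast was low.

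Higher in C stomach were also Sctr, the secretin receptor (3.87), Glp1r, the receptor of glucagon-like peptide 1 (2.78), Sstr2, a somatostatin receptor (2.08), Gipr (0.92) and Sort1 (0.91), which binds neurotensin. Sctr and Gipr thus differed in the opposite direction to their ligands Sct and Gip. Lower in C stomach were the somatostatin receptors Sstr4 (-1.77) and Sstr5 (-0.69) and the neurotensin receptors Ntsr1 (-1.64) and Ntsr2 (-0.80). Sstr1 and Gcgr did not pass. The receptors for which no probe was bright enough were Cckar, Sstr3, Glp2r, Npy1r, Npy2r, Npy4r and Npy5r, which leaves every listed receptor of peptide YY out of the comparison.

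Genes that make and store the hormones were found on both sides, with shares called close to the 44.9% of all probes (22.7% higher and 22.3% lower). Of 6 tested genes of prohormone processing, 2 were higher in C stomach, 1 was lower and 3 did not pass. Pcsk2, a prohormone convertase, was higher by 1.45 (adjusted p = 0.0261, limma), though well above background on 1 of 4 intestinal arrays, and Pam, the enzyme that amidates gastrin, cholecystokinin, secretin and peptide YY, was higher by 1.33 (adjusted p = 3.54e-06, limma). Of 7 granins and granule proteins, 1 was higher, 3 were lower and 3 did not pass: Ptprn2, a granule membrane protein, was higher by 3.27, while Scg2 was lower by -1.11, Vgf by -0.89 and Syp by -0.78.

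For the next 4 lists the share over all probes was likewise 44.9%, and nothing particular to a list was read from its count. Of 12 transcription factors of enteroendocrine cells, 4 were higher in C stomach, 3 were lower and 5 did not pass. Isl1 (3.70), Foxa2 (3.00) and Foxa1 (2.61) were among those higher, Isl1 being well above background on 3 of 4 intestinal arrays. For the amines, 2 of 5 genes were higher and 1 lower: Hdc, which makes histamine in the enterochromaffin-like cells of the stomach, by 4.35, the vesicle transporter Slc18a2 by 2.82, and Ddc, an enzyme of serotonin synthesis, by -3.17. Among 5 nutrient sensors 1 was higher, the calcium-sensing receptor Casr (1.45), and 3 were lower, among them the glucose transporter Slc5a1 (-2.26) and the bile acid receptor Gpbar1 (-2.72), which was well above background on 1 of 4 C stomach arrays. Of 12 other gut peptides 4 were higher, 4 lower and 4 did not pass. Nmu, neuromedin U, differed by -4.05, Iapp, amylin, by 3.83 and Ppy, pancreatic polypeptide, by 2.92. Iapp was well above background on 1 of 4 C intestinal arrays. Iapp and Ppy were also on the pancreatic islet list and were the only 2 of its 4 tested genes to pass, both higher in C stomach. The other 2, Ins1 and Ins2, had lower means in C stomach and did not pass. Of 9 tested exocrine pancreas genes 7 were higher in C stomach, 0 lower and 2 did not pass, against 22.7% of all probes higher. In OH rats 6 were higher, 0 lower and 3 did not pass, against 19.2%. The part of pancreas in the gastric values of Iapp, Ppy and Sst was not tested.

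**Figure D5:**
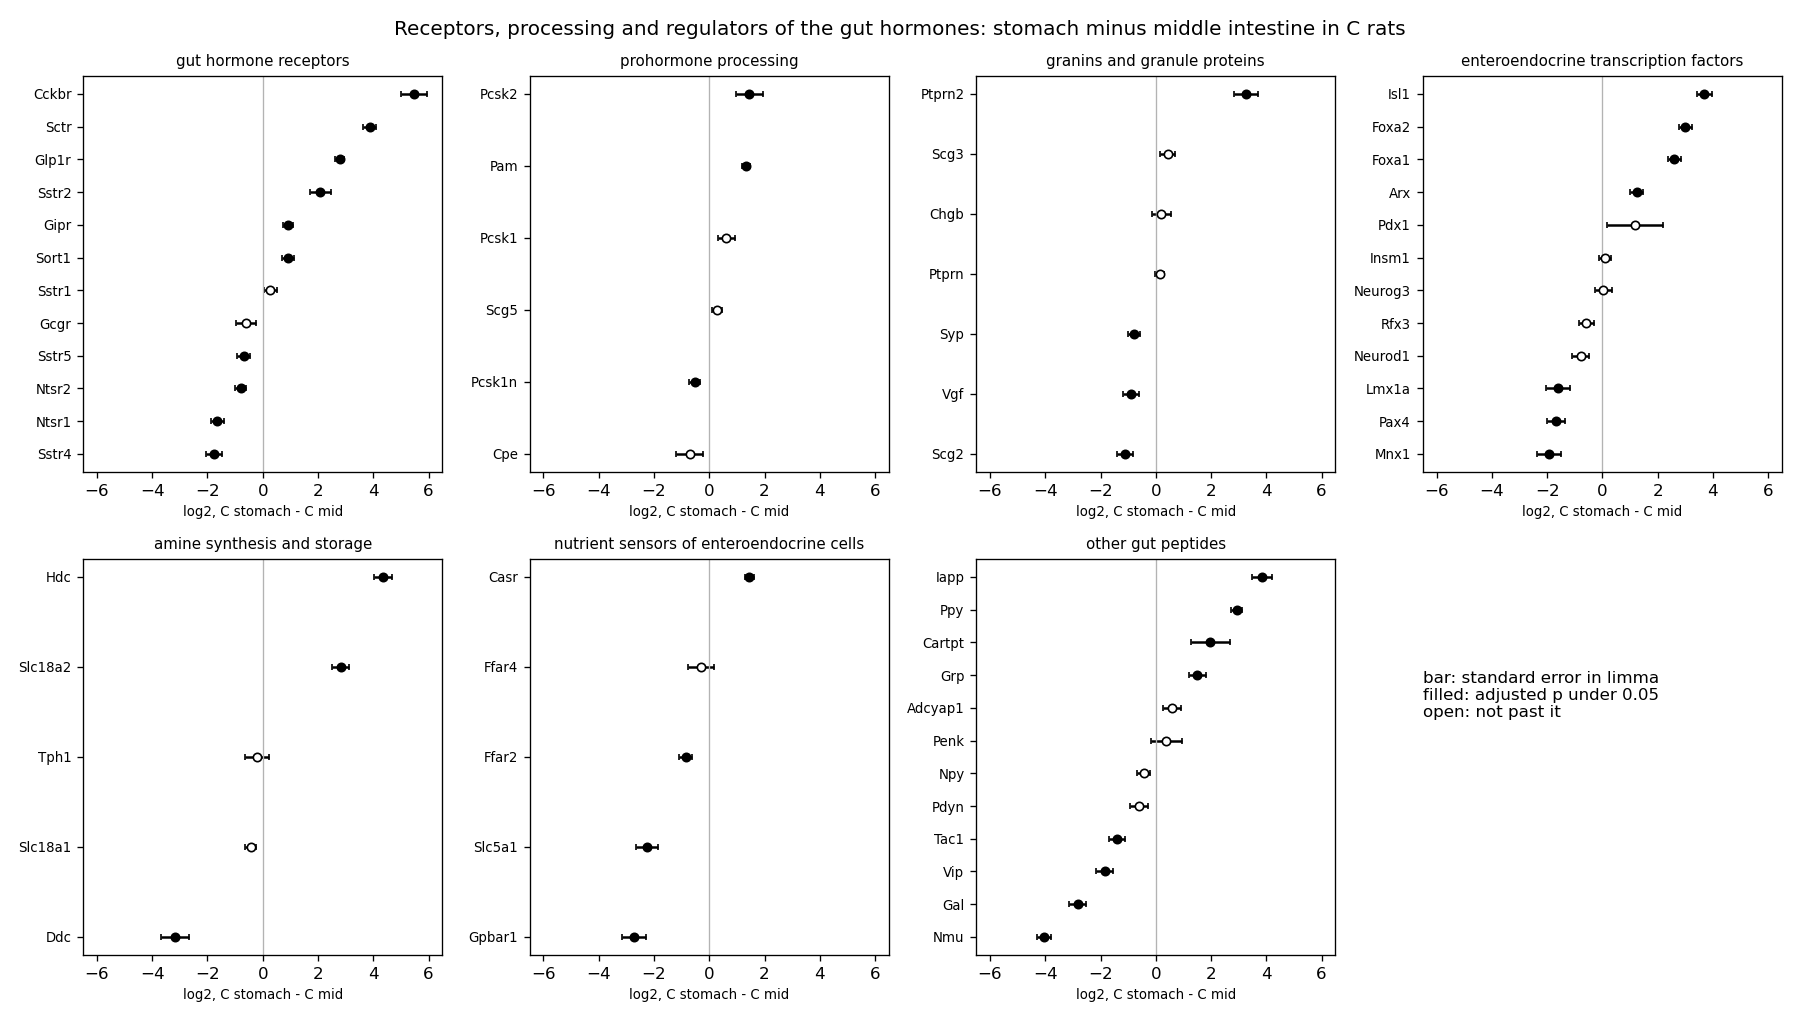
Difference between C stomach and C middle intestine on the log2 scale for the tested genes of 7 lists, with standard errors from limma. Filled points have an adjusted p under 0.05, and within every list some genes lie on each side of 0. Cckbr, Pcsk2 and Iapp in intestine and Gpbar1 in stomach were well above background on 1 of 4 C arrays.

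Pam was also the only gene of these 7 lists to pass for OH against C. In middle intestine it stood at -0.56, -0.84, -1.24 and -0.78 in C rats and at -0.02, -0.01, -0.08 and -0.11 in OH rats, a difference of 0.80 (SE 0.14, adjusted p = 0.0318, limma). In stomach it stood at 0.49, 0.69, 0.24 and 0.48 in C rats and at 0.80, 1.20, 0.91 and 0.87 in OH rats, a difference of 0.47 (SE 0.14, adjusted p = 0.308, limma). All OH arrays lay above all C arrays in both tissues, where 5.86% of all probes separated in middle intestine and 7.6% in stomach. The call of Pam was not followed under the alternative settings given below. In middle intestine the tissue signal was not higher in OH rats. The log2 Cy3 signal of Pam was lower by -0.92 on the OH arrays and the log2 Cy5 signal of the tissue was lower as well, by -0.12, in middle intestine. Scaled to the 75th percentile of each array these changes were -1.10 and -0.28. In stomach the log2 Cy5 signal was higher by 0.23 and the log2 Cy3 signal lower by -0.24. In the other lists no gene passed in either tissue, of 12 receptors, 7 granule proteins, 12 transcription factors, 5 amine genes, 5 nutrient sensors and 12 other gut peptides.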

How the data were processed

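The authors deposited the Agilent Feature Extraction output of each array, with header version 10.10.1.1 where the processing notes give 10.7.3.1: processed intensity of Cy5 and Cy3 per spot after background subtraction and Lowess normalization between dyes. Deposited as well was a table of log10 ratios of the spots, equal to the scanner log ratios on 15 of 16 arrays and to rounding on the other. Log2 ratios were computed here from the deposited intensities, without control and outlier spots, averaged per probe and not scaled between arrays. A probe was kept where the whole of any group (4 arrays) was well above the Cy5 background and each group had 3 values or more, which left out 9193. Group means over all 16 arrays were estimated by limma 3.58.1 (R 4.3.3), with 5 contrasts, an adjusted p threshold of 0.05 and no block. Of the probes of a gene in the lists, the brightest was used, and up to 3 passing genes with the widest difference were named per list beside all receptors. Other tested probes of these genes had the same direction between the tissues in C rats, but some differed in size. The fit was tested on simulated ratios. Samples were grouped by label. Members and lists were chosen with earlier results of these data known. Alternatives covered background correction, scaling, reference, filter, arrays, block, weights, test and leaving out each array. The number of arrays limits the precision.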

Additional observations from a re-analysis of the deposited data

Results flagged for a closer look

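In 40 sets of 4 arrays, each probe in each group, the gap of the most extreme array was tested with Dixon's criterion, which chance alone passes in about 2 of 40. It marked 3 sets. For Gast in C stomach the second array, at -2.01 against 4.26 to 4.73 on the others, took 0.93 of the range. For Gast in OH stomach the fourth array, at -2.02 against 3.34 to 3.92, took 0.902 of the range. For Cck in OH stomach the fourth array, at -4.80 against -4.54 to -4.48, took 0.839 of a range of only 0.32, and its Cy5 signal, 229.6 units, lay between those of the other arrays (218.5 to 259.4) while its Cy3 signal, 6412 units, was the highest of the 4.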

How the results depend on the processing

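Between the tissues, the number of hormone probes that passed was 9 or 10 in C rats and 6 to 9 in OH rats under every alternative with an adjusted p, 8 to 10 and 6 to 8 when single arrays were left out, and 10 and 8 with the replicate block. For OH against C it was 0 under all of these, and so it was for the difference between the tissues, which was not run by ANOVA and Tukey's HSD or with only the arrays compared. At an unadjusted p under 0.05 it was 1 in middle intestine, which was Sst. The replicate block changed 1 call, that of Gast in OH rats (adjusted p = 0.055). Replicate numbers were not taken to pair the samples: between stomach and intestine of a treatment, same-numbered arrays correlated at -0.123 to 0.322 in their deviations, and the own number was the best match in 5 of 8 pairs, a hint from the data only. By ANOVA and Tukey's HSD Gast did not pass in C rats (adjusted p = 0.0581), nor did Gast (0.119), Gcg (0.0946) and Pyy probe 2 (0.0542) in OH rats. In OH rats Gast did not pass either without the filter on dim probes (0.0583) or with ratios scaled between arrays (0.0719), and Gcg not with array weights (0.079) or with only the arrays compared (0.0955). Differences between the tissues also moved in size: Gip in C rats was -4.51 with normexp and loess, Nts and Sct in OH rats -6.15 and -3.98 with scaling, and Gast in C rats 5.51 with scaling, 5.69 with array weights and 5.54 in Cy5 alone. Sst in OH rats was 1.93 in Cy5 alone. Over all probes, the counts for OH against C were less stable. In stomach 0 probes passed, but 709 by ANOVA and Tukey's HSD, 1177 with array weights, 639 without the filter, 37 in Cy5 alone, 9 with the looser filter, 2 with centring or the authors' table, 195 without both arrays of low Gast, and up to 311 with an array left out. In middle intestine 78 passed, but 936, 57, 1378, 662, 160, 152 (centring) and 76 under these, 269 with scaling, 40 with the replicate block, 1 with only the arrays compared and 12 to 42 with an array left out. For the difference between the tissues 0 passed, but 6 with scaling, 57 without both arrays of low Gast and up to 68 with an array left out.

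The direction of several small differences that never passed turned with the setting. With ratios scaled between arrays, OH minus C in stomach was 0.33 for Cck, -0.46 for Chga, 0.49 for Gip and -0.16 for Sst, and in middle intestine -0.22 for Chga, -0.17 for Gip, -0.24 for Nts and 0.16 for Pyy probe 2. With normexp and loess it was -0.0093 for Chga, -0.15 for Nts and -0.0078 for Sct in stomach, and with centring -0.011 for Chga. In Cy5 without the reference it was -0.018 for Sct in stomach and -0.14 for Gip in middle intestine. Without both stomach arrays of low Gast, chosen after seeing the data, it was 0.058 for Gip in stomach. With single arrays left out, values in stomach ranged from -0.16 to 0.23 for Chga, -2.23 to 0.82 for Gast, -0.27 to 0.0030 for Gip and -0.017 to 0.082 for Sst. In middle intestine they ranged from -0.26 to 0.43 for Cck, -0.12 to 0.16 for Chga, -0.11 to 0.15 for Gast, -0.15 to 0.39 for Gip, -0.39 to 0.58 for Nts, -0.39 to 0.15 and -0.24 to 0.26 for Pyy probes 1 and 2, and -0.20 to 0.30 for Sct. The cause was not tested.
The values of single probes for the difference between the tissues in OH against C are not reported and were not followed. Dim signals limit Nts in stomach and Gcg in both tissues.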
